A study of Mus musculus with 2 samples.

Results

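Enteroendocrine cells are the hormone-producing cells of the gut epithelium, and 10 genes that mark them, their hormones and their development were followed in colon epithelial cells of C57BL/6 mice. The genes were taken by symbol from 22350 symbols listed in either library, and all 10 were listed in both. They were Chga, Chgb and Tph1 of serotonin-producing cells, Pyy, Gcg and Insl5 of L cells, Cck and Sst of other hormone cells, and the transcription factor genes Neurog3 and Neurod1. Messenger RNA was sequenced in 1 library from Wild Type and 1 library from Pkm2-/- mice, and both groups had received 2.5% DSS for 3 days (dextran sulfate sodium, which injures the epithelium of the colon). Every library therefore comes from DSS-treated epithelium, and an untreated group is not analysed here. The labels give neither the number of animals behind a library nor their age, and neither the construction of the Pkm2-/- allele nor which cells lack the gene is stated there. With 1 library per genotype no difference has a replicate check, no p-value is given, and each comparison describes these libraries alone.

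Endocrine cells arise from crypt progenitors that briefly switch on Neurog3, the basic helix-loop-helix factor without which the gut forms no endocrine lineage, followed by Neurod1, a factor of the same family that carries differentiation forward. Mature serotonin cells, also called enterochromaffin cells, make serotonin from tryptophan through TPH1 and store it in granules rich in chromogranins, and they signal to enteric nerves. L cells are frequent in the colon and release glucagon-like peptides cut from the Gcg precursor, peptide YY and insulin-like peptide 5, which act on appetite, insulin release and motility.

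The 250 bases before the annotated start show how the hormone and granule genes differ in their letters, and 5 windows are printed because they carry the motifs searched for and belong to genes that were lower in the knockout library or, for Gcg, had an interval that includes no difference. They were taken from the RefSeq promoter table of build GRCm38.p6, which held all 10 genes. The starts are those of that table, whereas the gene bounds given below come from GENCODE, and the 2 can differ. By the GENCODE bounds the whole Chgb window lies inside its gene. Parts of the Sst window, with its marked element, and of the Insl5 window also lie inside. Capitals mark TGACGT, the core of the cyclic AMP response element, its full form TGACGTCA, and the E-boxes CAGATG, a form bound by NEUROD and neurogenin proteins, and CAGCTG, each searched on both strands.
Chgb, chr2:132781392-132781641, plus strand: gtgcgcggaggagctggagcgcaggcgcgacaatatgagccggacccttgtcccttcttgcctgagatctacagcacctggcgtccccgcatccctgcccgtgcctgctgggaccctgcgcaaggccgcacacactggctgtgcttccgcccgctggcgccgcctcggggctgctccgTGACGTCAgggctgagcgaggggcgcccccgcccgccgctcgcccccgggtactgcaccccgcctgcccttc
Chga, chr12:102554691-102554940, plus strand: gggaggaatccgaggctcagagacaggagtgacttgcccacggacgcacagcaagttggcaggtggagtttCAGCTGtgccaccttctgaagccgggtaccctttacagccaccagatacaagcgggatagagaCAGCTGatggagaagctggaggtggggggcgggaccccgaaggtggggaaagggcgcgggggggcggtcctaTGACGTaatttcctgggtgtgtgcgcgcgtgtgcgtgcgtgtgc
Sst, chr16:23890845-23891094, minus strand: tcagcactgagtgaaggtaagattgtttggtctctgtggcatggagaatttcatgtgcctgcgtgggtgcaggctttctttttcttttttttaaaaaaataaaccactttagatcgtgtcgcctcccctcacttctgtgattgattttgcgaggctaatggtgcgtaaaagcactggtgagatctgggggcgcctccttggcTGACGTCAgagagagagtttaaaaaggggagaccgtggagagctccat
Gcg, chr2:62483654-62483903, minus strand: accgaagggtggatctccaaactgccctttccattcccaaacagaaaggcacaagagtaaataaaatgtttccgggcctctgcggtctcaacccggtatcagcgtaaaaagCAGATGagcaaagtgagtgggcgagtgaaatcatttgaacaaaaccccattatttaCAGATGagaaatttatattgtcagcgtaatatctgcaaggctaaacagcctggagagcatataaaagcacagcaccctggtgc
Insl5, chr4:103026729-103026978, minus strand: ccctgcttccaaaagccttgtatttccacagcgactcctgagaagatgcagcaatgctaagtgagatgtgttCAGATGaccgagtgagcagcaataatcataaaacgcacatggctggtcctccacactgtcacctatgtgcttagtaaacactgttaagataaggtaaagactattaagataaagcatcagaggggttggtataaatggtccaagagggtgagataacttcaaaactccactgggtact
The full element TGACGTCA, which contains the core, lay 72 bases before the start of Chgb and 48 bases before that of Sst, and the core without the full element lay 44 bases before that of Chga. Among 32851 windows of the same length in the table, 1.55% held TGACGTCA and 6.47% held TGACGT. The letters CAGATG occurred at 139 and 83 bases before the start of Gcg, 178 bases before the printed start of Insl5, which has a further start without it, and 30 bases before that of Cck, and 14.4% of all windows held it. CAGCTG was found in Chga, at 179 and 116 bases, and in Neurog3, at 165 bases, against 13.0% of all windows. The windows of Tph1, Pyy and Neurod1 held none of these letters. A match describes the sequence and is no evidence of binding.

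Values are FPKM (fragments mapped, divided by transcript length and library depth), and they can be compared between genes because they are per length. From the smallest steps between values, the wild type library held about 18700000 fragments and the knockout library about 20200000, which sets the 95% counting intervals below. These intervals are approximate and cover counting error only. The tissue label was checked against 12 general epithelial genes, all abundant in both libraries, such as Epcam at 583.7 FPKM in the wild type and 712.3 FPKM in the knockout library. Pkm, the targeted gene, stood at 280.8 and 86.2 FPKM, a gene-level value that covers both of its splice forms.

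The comparison asked how endocrine transcripts of the DSS-treated epithelium differed between the genotypes. The chromogranins, Tph1, Pyy, Insl5 and Sst were 1.64-fold to 2.05-fold lower in the knockout library, whereas Neurog3 was higher and the intervals of Gcg, Cck and Neurod1 included a fold of 1. On the log2 scale with a pseudocount of 1 FPKM, 6 of the 10 genes were at least 1.5-fold lower, against 5.29% of the 12429 genes averaging 1 FPKM or more, and none of the 10 was at least 1.5-fold higher, against 4.46%. None reached 2-fold on that scale, where 1.9% of all genes were lower and 1.42% higher. By the plain ratio 1 gene, Tph1, was at least 2-fold lower, against 3.11% of genes, and 1, Neurog3, at least 2-fold higher, against 2.34%. The median log2 ratio of the 10 genes was -0.71, and that of all genes was 0.06. In bulk RNA, fewer endocrine cells and less transcript per cell cannot be told apart.

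**Figure D1:**
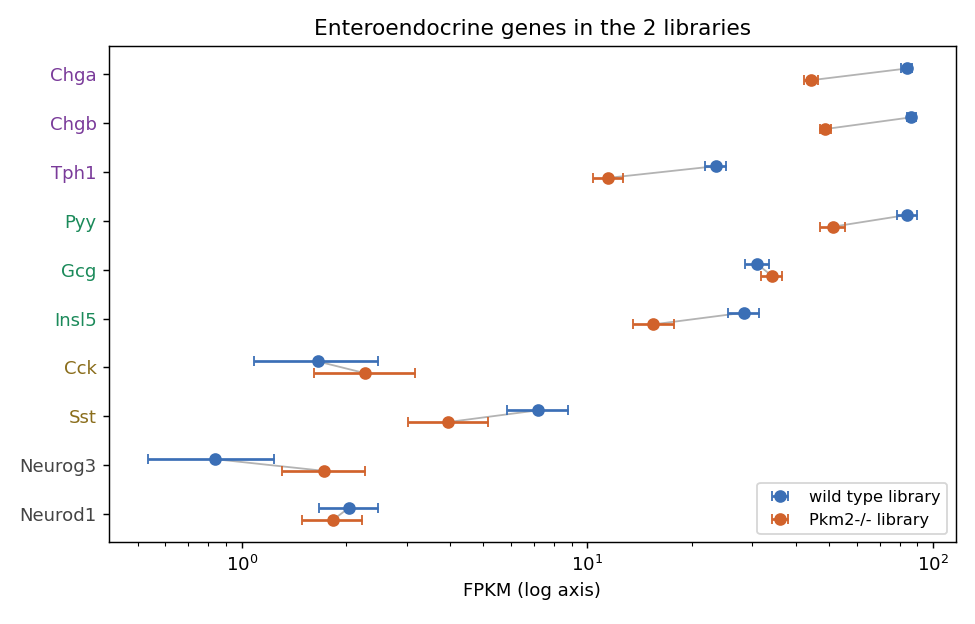
Level of each of the 10 genes in FPKM (log axis) in the wild type library (blue) and the Pkm2-/- library (orange), with bars for the 95% counting interval and gene names coloured by role (purple serotonin cells, green L cells, brown other hormones, grey progenitor factors). The levels run from 0.837 FPKM for Neurog3 to 86.3 FPKM for Chgb in the wild type library, and the orange point lies left of the blue one for Chga, Chgb, Tph1, Pyy, Insl5, Sst and, within overlapping bars, Neurod1.

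The 3 genes grouped as serotonin cell genes were lower together, and of these only Tph1 acts in serotonin synthesis. Chga, which encodes chromogranin A, a granule protein of most endocrine cells and richest in serotonin cells, was at 83.8 FPKM in wild type and at 44.3 FPKM in knockout cells, or 1.89-fold lower (95% counting interval 1.78 to 2.01). The related granule protein gene Chgb stood at 86.3 and 48.7 FPKM, 1.77-fold lower (95% counting interval 1.69 to 1.86). Tph1, the rate-limiting enzyme of serotonin synthesis outside the brain, stood at 23.5 and 11.5 FPKM, 2.05-fold lower (95% counting interval 1.81 to 2.31). On GRCm38 these genes lie on separate chromosomes, Chga (ENSMUSG00000021194) at chr12:102554969-102565028, Chgb (ENSMUSG00000027350) at chr2:132781278-132795079 and Tph1 (ENSMUSG00000040046) at chr7:46644641-46672537. The 3 genes kept nearly the same proportions in both libraries. The level of Chga was 3.56 times that of Tph1 in wild type and 3.86 times in knockout cells, and in none of the 3 pairs did the folds differ beyond counting error, at intervals made simultaneous over all 45 pairs of the 10 genes. The interval for the fold of Chga over that of Tph1 ran from 0.866 to 1.36 and that for Chgb over Tph1 from 0.932 to 1.44, so differences in fold within these bounds remain possible.

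The 3 L cell hormone genes did not move alike. Pyy, which encodes the satiety hormone peptide YY, was at 83.97 FPKM in wild type and at 51.2 FPKM in knockout cells, or 1.64-fold lower (95% counting interval 1.47 to 1.82). Insl5, which encodes a peptide made by L cells of the colon and rectum, stood at 28.4 and 15.5 FPKM, 1.83-fold lower (95% counting interval 1.54 to 2.17). Gcg, the precursor gene of the glucagon-like peptides, stood at 30.9 and 34.1 FPKM, a fold of 1.10 with a counting interval that includes 1 (0.991 to 1.23), and its log2 ratio of 0.14 turned to -0.07 when the libraries were scaled to equal epithelial genes. Pyy (ENSMUSG00000017311) lies at chr11:102106676-102107832, Gcg (ENSMUSG00000000394) at chr2:62474530-62483650 and Insl5 (ENSMUSG00000066090) at chr4:103017872-103026842. Within the L cell set the proportions shifted towards Gcg. Its level was 1.09 times that of Insl5 in wild type and 2.195 times in knockout cells, and the fold of Gcg was 2.02 times that of Insl5 (simultaneous counting interval 1.44 to 2.82). Pyy was 2.72 times as abundant as Gcg in wild type and 1.505 times in knockout cells, and the fold of Gcg was 1.81 times that of Pyy (simultaneous counting interval 1.41 to 2.33). The folds of Pyy and Insl5 did not differ beyond counting error, with a ratio of 1.12 (0.799 to 1.56). Of the 9 pairs of a serotonin cell gene with an L cell gene, the interval excluded 1 in 3, those with Gcg. Against Pyy and Insl5 it always included 1, as for Chga over Pyy (0.708 to 1.06) and over Insl5 (0.717 to 1.31). The same held for the serotonin cell genes against Sst, so their kept proportions were not shown to be particular to them. The Gcg and Insl5 windows printed above both hold the CAGATG letters, and a link between these letters and the folds was not tested.

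Of the less abundant hormones, Sst, which encodes somatostatin, the inhibitory peptide of D cells, was at 7.19 FPKM in wild type and at 3.96 FPKM in knockout cells, or 1.81-fold lower (95% counting interval 1.29 to 2.55). Cck, the cholecystokinin gene, which is more typical of the small intestine, stood at 1.66 and 2.28 FPKM. These values rest on about 25 and 37 fragments, and the fold of 1.37 has an interval from 0.802 to 2.37. The direction of Cck is not resolved at this depth. Sst (ENSMUSG00000004366) lies at chr16:23889573-23890958 and Cck (ENSMUSG00000032532) at chr9:121489824-121495694.

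The progenitor factors gave a higher value for Neurog3 and an interval including no difference for Neurod1. Neurog3 was at 0.837 FPKM in wild type and at 1.73 FPKM in knockout cells, 2.07-fold higher (95% counting interval 1.26 to 3.52), from about 24 and 54 fragments. Neurod1 stood at 2.04 and 1.84 FPKM, from about 104 and 101 fragments, and its fold of 0.902 has an interval from 0.676 to 1.19. A difference between the 2 factors was not detectable at this depth, since the ratio of their folds was 2.29 (simultaneous counting interval 0.910 to 6.26). Set against the serotonin cell genes, the fold of Neurog3 was 4.23 times that of Tph1 (simultaneous counting interval 1.87 to 10.5) and 3.91 times that of Chga (1.76 to 9.55). In 5 of the 6 pairs of a serotonin cell gene with a progenitor factor the interval excluded 1, the exception being Chgb with Neurod1, whose interval for the ratio of folds ran from 0.391 to 1.01. Against the L cell genes it excluded 1 in 2 of 6 pairs and against Cck and Sst in 1 of 4. The intervals of Pyy (0.412 to 1.12), Insl5 (0.353 to 1.06) and Sst (0.295 to 1.27) over Neurod1 all included 1. Over all 45 pairs it excluded 1 in 18.

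**Figure D2:**
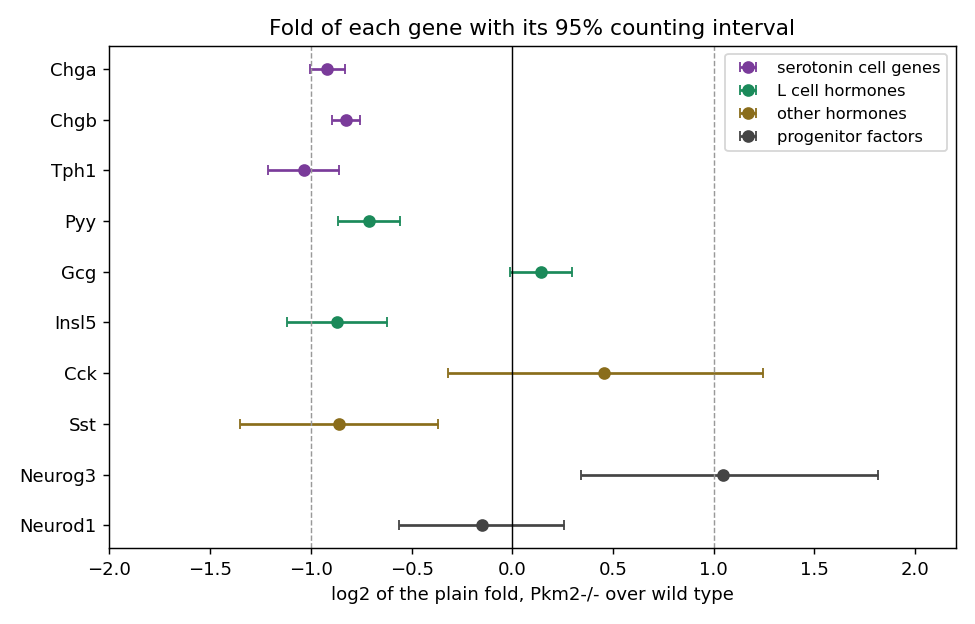
Log2 of the plain fold of each gene, Pkm2-/- over wild type, with bars for the 95% counting interval, a solid line at no difference and dashed lines at 2-fold. The 3 serotonin cell genes, Pyy, Insl5 and Sst lie left of the solid line with their whole bars, the bars of Gcg, Cck and Neurod1 cross it, and that of Neurog3 lies right of it.

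Both progenitor factor genes overlap other genes, which limits how far their reads can be assigned. Neurog3 (ENSMUSG00000044312, chromosome 10, 62133090 to 62134763 on GRCm38, plus strand) lies inside Fam241b on the opposite strand, and 16.3% of its exon bases are also exon bases of that gene. Fam241b was at 6.95 FPKM in wild type and at 6.96 FPKM in knockout cells, above Neurog3 in both. How reads on the shared bases were split between these genes was not tested. Neurod1 (ENSMUSG00000034701, chromosome 2, 79452521 to 79456751, minus strand) shares 7.37% of its exon bases with Cerkl on the same strand, which stood at 0.462 and 0.557 FPKM, and 5.64% with the noncoding gene Gm26755. Whether strand was used in the counting is not stated. The deposited locus of either factor also spans these neighbours. None of the other 8 genes overlaps another annotated gene.

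The order of the 10 genes by level was much alike in both libraries. Chgb, Pyy and Chga were the most abundant in each, with Gcg, Insl5, Tph1 and Sst following in that order. In the wild type library the counting intervals of Chgb, Pyy and Chga overlapped, as did those of Gcg and Insl5. In the knockout library Gcg and Insl5 were apart, with intervals of 31.7 to 36.6 FPKM and 13.5 to 17.8 FPKM. Neurod1, Cck and Neurog3 were the lowest in either library, and in the knockout library their intervals overlapped. The serotonin cell genes summed to 193.7 FPKM in the wild type and 104.5 FPKM in the knockout library, mostly from Chgb and Chga. The L cell genes summed to 143.2 and 100.8 FPKM, and the progenitor factors to 2.88 and 3.57 FPKM.

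Further genes of endocrine cells were described from 5 lists of 147 genes, of which 136 were listed and 69 averaged 1 FPKM or more, the level from which genes are called measured here. Of these 69, 42 had a log2 ratio below 0, where 41.2% of all genes did. On the same scale 2 of them, Adra2a and Slc15a1, were at least 2-fold lower, against 1.9% of all genes. None was at least 2-fold higher, against 1.42%, so both 2-fold counts on this scale lie near the background. By the plain ratio 5 of the 69 were at least 2-fold lower, against 3.11% of all genes, and none was at least 2-fold higher, against 2.34%. On the log2 scale 10 of the 69 were at least 1.5-fold lower, against 5.29% of all genes, and 1 was at least 1.5-fold higher, against 4.46%. Their median log2 ratio was -0.17, between that of the 10 genes and that of all genes. The lists hold genes that other epithelial cells also express, so they are a broader and less specific readout.

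Of 12 measured genes around serotonin, 10 had a ratio below 0, against 41.2% of all genes, and the median was -0.29. Tac1, which encodes the substance P precursor stored with serotonin, was at 6.85 FPKM in wild type and at 3.43 FPKM in knockout cells, or 1.995-fold lower (95% counting interval 1.61 to 2.47). Slc18a1, the vesicular monoamine transporter of endocrine cells, stood at 3.69 and 2.35 FPKM, 1.57-fold lower (95% counting interval 1.27 to 1.96). Adra2a, an alpha-2 adrenergic receptor, had the lowest ratio, at 14.3 and 4.03 FPKM, 3.54-fold lower (95% counting interval 3.10 to 4.05). Ddc, the decarboxylase that completes serotonin synthesis, stood at 15.5 and 13.5 FPKM, and the serotonin reuptake transporter Slc6a4 at 3.79 and 2.98 FPKM. The enzymes that make and recycle the TPH1 cofactor tetrahydrobiopterin had ratios on both sides of 0, with Gch1 at 7.73 and 9.28 FPKM and Spr at 48.6 and 54.8 FPKM above it, and Pts at 17.9 and 14.1 FPKM and Qdpr at 52.9 and 44.2 FPKM below it. Maoa, which degrades serotonin and other amines in many cells, was the most abundant of the list, at 182.6 and 108.4 FPKM, and Maob stood at 4.17 and 2.29 FPKM. The amino acid transporter gene Slc38a11 stood at 1.97 and 1.60 FPKM.

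Beyond the members, 5 peptide hormone genes were measured, Tac1 among them. Of these, 4 had a ratio below 0, against 41.2% of all genes, and the median was -0.81. Nts, which encodes neurotensin, a peptide that acts on gut motility and secretion, was at 17.4 FPKM in wild type and at 9.46 FPKM in knockout cells, or 1.84-fold lower (95% counting interval 1.56 to 2.17). Sct, the secretin gene, stood at 13.2 and 10.2 FPKM. Iapp and Ppy, peptides better known from the pancreatic islet, stood at 2.07 and 0.703 FPKM and at 1.21 and 1.49 FPKM. Iapp was 2.94-fold lower (95% counting interval 1.45 to 6.15), from about 32 and 12 fragments. Ppy, the only one above 0, rests on about 11 and 15 fragments, and its fold of 1.23 has an interval from 0.541 to 3.04. The fold of Nts was close to that of Insl5, a difference that was not tested, and Sct was nearer to level. Gip, Gast and Gal were listed in neither library.

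Granule and prohormone processing genes were mixed. Of 26 measured genes 17 were below 0, against 41.2% of all genes, and 9 above 0, with a median of -0.16. On the log2 scale 3 were at least 1.5-fold lower, against 5.29% of all genes, and 1 was at least 1.5-fold higher, against 4.46%. These counts are too small to stand apart from those shares. Pcsk1n, an inhibitor of the convertase PCSK1, was at 5.11 FPKM in wild type and at 2.53 FPKM in knockout cells, or 2.02-fold lower (95% counting interval 1.60 to 2.56), and Ptprn, a dense-core granule membrane protein, stood at 2.42 and 1.11 FPKM, 2.18-fold lower (95% counting interval 1.64 to 2.86). Pam, which amidates peptides, stood at 20.6 and 12.99 FPKM. The convertase Pcsk1, which cuts the Gcg precursor into glucagon-like peptides, was close between the libraries, at 9.19 and 7.999 FPKM, a fold of 0.871 with an interval from 0.725 to 1.05. Among the genes with ratios above 0 were Stx1a, a syntaxin of vesicle fusion, at 1.70 and 2.34 FPKM and the complexin gene Cplx2 at 1.32 and 1.75 FPKM. The most abundant genes of the list were Rab3d at 50.2 and 45.9 FPKM, Vamp2 at 52.0 and 38.3 FPKM, Tspan7 at 36.99 and 37.2 FPKM and Snap23 at 20.3 and 23.1 FPKM, and vesicle genes of this kind also act in other secretory cells.

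Of 14 measured transcription factor genes 10 had a ratio above 0 and 4 below 0, against 41.2% of all genes below 0. The median was 0.09, close to the 0.06 of all genes. None was at least 1.5-fold apart on the log2 scale with the pseudocount, where 5.29% of all genes were lower and 4.46% higher, a share too small for a count of 0 among 14 to stand apart. Insm1, a zinc finger factor downstream of Neurog3, was at 1.42 FPKM in wild type and at 1.92 FPKM in knockout cells, and Sox4, which acts in early endocrine progenitors, at 9.18 and 12.6 FPKM. Atoh1, which all secretory lineages need, stood at 42.5 and 45.3 FPKM, and Foxa1 at 35.2 and 40.5 FPKM. Tox3 was at 8.60 and 10.7 FPKM, and Mlxipl, a glucose-responsive factor, was level at 15.69 and 15.72 FPKM. Hes1, the Notch target that represses secretory fate, had the lowest ratio, at 48.1 and 38.4 FPKM, followed by Hmgn3 at 1.303 and 1.02 FPKM and Bhlha15 at 2.30 and 1.93 FPKM. Pax4, Pax6, Isl1, Rfx6 and Lmx1a, factors that divide the endocrine subtypes, all averaged below 1 FPKM.

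Receptor and transport genes by which endocrine cells sense their surroundings were mixed. Of 13 measured genes 8 were below 0, against 41.2% of all genes, with a median of -0.17. Receptors for fatty acids lay on both sides of 0. Ffar4, which senses long-chain fatty acids, was at 24.6 FPKM in wild type and at 32.8 FPKM in knockout cells. Of the receptors for short-chain fatty acids, Ffar2 had 6.20 and 8.45 FPKM, Ffar3 1.199 and 1.14 FPKM, and Olfr78 3.99 and 3.06 FPKM. The peptide transporter Slc15a1 was lowest, at 2.46 and 0.678 FPKM, 3.62-fold lower (95% counting interval 2.58 to 5.21), and the glucose transporter Slc5a1 stood at 57.6 and 42.1 FPKM. Sstr1, a somatostatin receptor, was at 6.01 and 4.28 FPKM, and Abcc8, the sulfonylurea receptor of the potassium channel that links glucose to secretion, at 1.46 and 2.12 FPKM. The prostaglandin receptor Ptger4, at 10.1 and 12.8 FPKM, and Gpr35, at 9.63 and 10.8 FPKM, were among the most abundant. Several of these genes are also expressed by absorptive and other epithelial cells. Rxfp4, the receptor for insulin-like peptide 5, was listed in the wild type library alone, at 0.0932 FPKM from about 2 fragments.

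**Figure D3:**
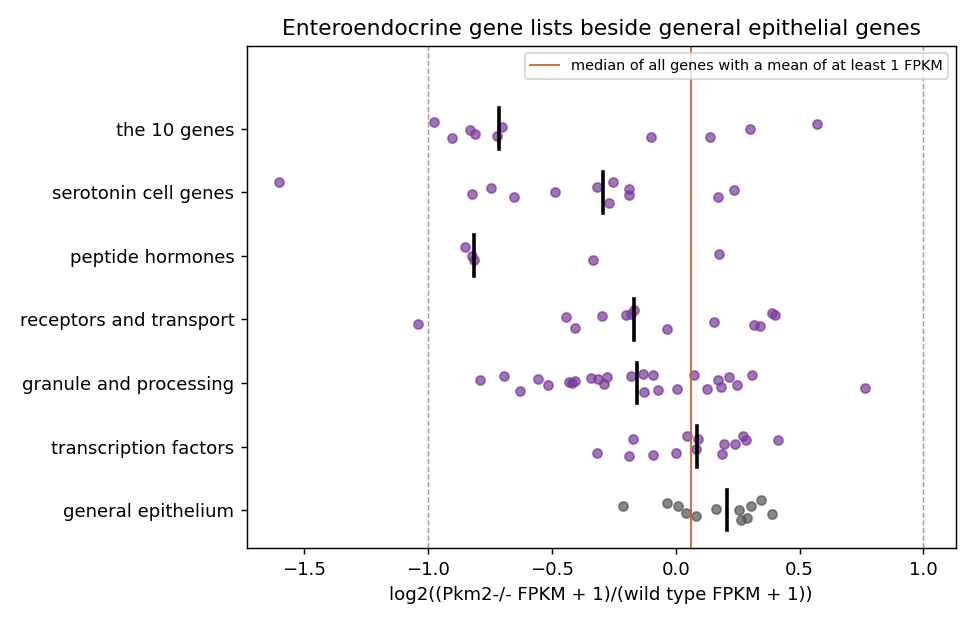
Log2 ratio, Pkm2-/- over wild type with a pseudocount of 1 FPKM, of each gene averaging 1 FPKM or more in the 10 followed genes, the 5 further endocrine lists (purple) and the general epithelial list (grey), with a black bar at each median. The medians of the 10 genes (-0.71) and of the peptide hormones (-0.81) lie left of the other lists, that of the transcription factors (0.09) lies near the orange line at the median of all genes (0.06), and that of the epithelial genes (0.21) lies right of it.

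Values outside the endocrine genes also differed between the libraries, in both directions. The 12 general epithelial genes had a median log2 ratio of 0.21. Of them 10 were above 0 and 2 below 0, against 41.2% of all genes below 0. Their summed level was 7333 FPKM in the wild type and 8332 FPKM in the knockout library. Scaled to equal epithelial genes, by a factor of 0.865 on the knockout values, the log2 ratios of Chga, Chgb and Tph1 were -1.11, -1.02 and -1.17. Genes of the hindmost body axis, a list added after their values were seen, differed as well. Hoxb13 stood at 23.8 and 10.7 FPKM, 2.22-fold lower (95% counting interval 1.99 to 2.48), and Hoxd13 at 4.56 and 1.69 FPKM, 2.70-fold lower (95% counting interval 2.08 to 3.49), whereas Hoxa13 stood at 5.16 and 7.89 FPKM. Factors expressed along more of the colon were close, with Hoxb6 at 44.1 and 47.5 FPKM and Hoxb8 at 15.7 and 15.98 FPKM. Insl5 and Pyy are known to be richer towards the distal colon, the stretch of colon behind each library is not given in the labels, and the part of these values in the hormone differences was not tested.

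Cells other than endocrine cells can hold some of the transcripts. Of 17 markers of enteric neurons and glia, which share granule proteins and peptides with endocrine cells, 13 were listed and none averaged 1 FPKM. Their summed level was 2.46 FPKM in the wild type and 2.03 FPKM in the knockout library, and the defining genes Prph and Sox10 were listed in neither. Mast cells also contain Tph1. Their 3 measured markers had ratios above 0, Kit only slightly. Most of their listed markers below 1 FPKM were also higher in the knockout library, on few fragments. Mcpt1 stood at 0.202 and 5.38 FPKM, 26.6-fold higher (95% counting interval 9.66 to 95.01), and Mcpt2 at 0.109 and 2.60 FPKM, while Cma1 stood at 1.20 and 0.297 FPKM. Of the 12 mast cell markers 11 were listed, with a summed level of 20.2 and 28.0 FPKM, of which Kit alone, also an epithelial gene, made up 18.4 and 18.8 FPKM, and Tpsab1 was listed in neither library. The monoamine transporter Slc18a2, chosen after its values were seen, stood at 0.526 and 1.45 FPKM, the reverse of Slc18a1. Of 8 pancreatic genes Ins1, Ins2 and Cpa1 were listed in neither library, and the summed level was 3.30 and 2.40 FPKM, mostly the shared Iapp and Ppy. The 8 smooth muscle and fibroblast genes summed to 6.35 and 3.68 FPKM. Of the fibroblast genes, Dcn stood at 2.65 and 0.870 FPKM and Col3a1 at 1.20 and 0.239 FPKM. Col1a1 and Col1a2 were also lower in the knockout library, with intervals that include 1. Of the muscle genes, Tagln stood at 1.94 and 2.08 FPKM and Acta2 at 0.0281 and 0.232 FPKM, with Myh11 and Des below 0.1 FPKM. The part of these other cells in the endocrine values was not tested.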

How the data were processed

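RNA of colon epithelial cells was taken up in Trizol and sequenced as messenger RNA libraries, per the labels' protocols. The FPKM values were used as the authors deposited them, and the unit was inferred from the values because the files have no header. Tools named per the submitters' processing notes include Cufflinks 2.2.1, Cuffdiff (2.2.1 and 1.3.0), TopHat2 2.1.1 and Bowtie2 2.2.9, with mm8 as build. The loci instead matched GRCm38 (GENCODE M21, 99.4% of 22384 IDs found, 99.96% of these overlapping), so that build is used.

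Values sharing a symbol were summed, and an unlisted gene was taken as 0. The log2 ratio was log2((knockout + 1)/(wild type + 1)), which understates low genes, and a fold is the plain ratio. Fragments were estimated from the median lowest step in single-transcript genes over 1.5 kb (377 and 385 genes), 0.0536 and 0.0496 FPKM times kb, and gave Clopper-Pearson intervals of folds, exact Poisson intervals of levels and conditional odds ratio intervals of pairs (99.9% each, 95% over 45 pairs; SciPy 1.17.1, pandas 2.3.3). The steps were checked on simulated data. The genes and lists were chosen with earlier results of these data known. Named were the 10 genes and, per list, genes 2-fold apart, the 3 highest and lowest ratios, the 4 most abundant, or all of a list of 6 or fewer, and a few others chosen by role after their values were seen. A few genes of the lists are not reported here. Scaling, pseudocount and filter were varied.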

Additional observations from a re-analysis of the deposited data

How the results depend on the processing

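Each genotype has 1 library, so no replicate could be left out, and no paired analysis was possible because the groups share fewer than 2 replicate numbers. The 10 genes were recomputed under 6 alternatives each, and the sign of every gene held except for Gcg, which was at -0.07 with equal epithelial genes. The log2 ratio of Tph1 ranged from -1.17 to -0.79, Neurog3 from 0.21 to 0.97 and Sst from -0.89 to -0.44. The median log2 ratio of the serotonin cell genes was -0.79 with a pseudocount of 5 FPKM and -1.11 with equal epithelial genes. That of the L cell genes was -0.91 with equal epithelial genes, and their mean was -0.46, since Gcg differs from the others. The mean over the 10 genes was -0.40 in place of the median of -0.71. The 2 further endocrine genes at least 2-fold lower became 4 with a pseudocount of 0.1 FPKM and 3 with equal epithelial genes. Their count fell to 1 with a pseudocount of 5 FPKM and to 1 when genes had to average 5 FPKM. No further endocrine gene was at least 2-fold higher in any of these. Cck, Neurog3 and Sst rest on few fragments, and their intervals are the widest.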

Other observations

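Several endocrine genes averaging below 1 FPKM were far apart between the libraries. They were chosen after their values were seen and rest on few fragments. Npy1r, a receptor for peptide YY and neuropeptide Y, had 1.19 FPKM in wild type and 0.310 FPKM in knockout cells, or 3.85-fold lower (95% counting interval 2.26 to 6.72). The somatostatin receptor gene Sstr2 had 1.33 and 0.462 FPKM, or 2.88-fold lower (1.68 to 5.06). Vgf, which encodes a granule protein, had 0.674 and 0.114 FPKM, or 5.94-fold lower (2.71 to 18.8). Among factors, Isl1 had 0.918 and 0.458 FPKM and Fev, a factor of serotonin cells, 1.24 and 0.649 FPKM, and both intervals exclude 1. Other factors were higher in knockout cells, Prox1 at 0.346 and 0.610 FPKM (interval of the fold 1.24 to 2.52), St18 at 0.520 and 0.826 FPKM (1.14 to 2.24) and Pax6 at 0.462 and 0.7003 FPKM (1.01 to 2.36). Ghrl, which encodes ghrelin, had 0.375 and 0.803 FPKM, with an interval for its fold from 0.779 to 6.85.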
